A study of Equus caballus with 6 samples.

Results

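The outer layers of adult horse articular cartilage were compared, superficial zone against middle zone, with 1 array each out of the 6 arrays in the series. The arrays were those whose titles name these zones. A gene entered the comparison of measured values when its probe was well above background on both arrays, which held for 1001 of the 13497 genes on the array. A gene well above background on only 1 of them is given as a bound.

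The tissue came from the stifle, the knee of the horse, at 15 years of age, where the cartilage was 1500 to 2000 µm thick. The superficial sample was cut from the outermost 10% of that thickness and the middle sample from the adjoining layer, which the labels give as 20 to 30% without saying whether this is a depth or a width. The remaining arrays were a deep zone sample of the same cartilage, taken at 50 to 90% of the depth, and 3 regions of fetal hindlimb at gestational day 40 (intermediate interzone, outer interzone and transient embryonic cartilage). Their levels are set beside some genes below. Cells were collected by laser capture microdissection from sections of 10 µm, and their RNA was amplified by PCR before 250 ng of cDNA was labelled with Cy3. The number of animals, and whether the zones came from 1 animal, is not given in the sources used here. With 1 array per zone, a difference cannot be checked against replicates and p-values are not given.

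Articular cartilage is layered. Flattened chondrocytes at the surface secrete lubricin, the product of PRG4, which coats the joint surface and lowers friction. Rounder chondrocytes of the middle layer lie in a matrix of obliquely arranged type II collagen and much aggrecan, the proteoglycan that holds water under load. Chondrocytes also make cytokines, complement proteins and matrix-degrading enzymes, which have been studied mostly in osteoarthritis.

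The arrays differed in how much they detected. The superficial array had 11524 of 43603 probes well above background (26.4%) and the middle array 3660 (8.39%), against 4729 on the deep array and 16109 to 19444 on the fetal arrays. At least 1 probe was well above background for 3889 genes in the superficial sample and 1338 in the middle sample. Of the genes detected in the superficial sample, 26.6% were also detected in the middle sample. No spot was saturated. Levels below are log2 of the processed signal minus the array's 75th percentile, taken over the 1765 probes that stood well above background on each of the 6 arrays. A scaled level of 0 therefore stands for a signal of 2560 on the superficial array and 507 on the middle array. In bulk samples of this kind, fewer cells of a type and less RNA per cell cannot be told apart.

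Each probe is a DNA strand of 60 bases. The sequences of 6 of them are printed here because the differences at the extremes rest on so little sequence. The first and last of 5 PRG4 probes start 4 bases apart, and capitals mark the 56 bases they share. LCN2 and COL16A1 had 1 probe each. The 2 NOS2 probes lie at separate places in 1 transcript and gave differences of opposite sign. Sequences run 5′ to 3′ as in the array design, numbered from the first base of the design's target transcript.
PRG4, bases 108 to 167: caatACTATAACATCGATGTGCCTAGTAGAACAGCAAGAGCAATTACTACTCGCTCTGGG
PRG4, bases 112 to 171: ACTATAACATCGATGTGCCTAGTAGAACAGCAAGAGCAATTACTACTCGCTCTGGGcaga
LCN2, bases 541 to 600: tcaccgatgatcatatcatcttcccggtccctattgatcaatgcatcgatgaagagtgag
COL16A1, bases 4698 to 4757: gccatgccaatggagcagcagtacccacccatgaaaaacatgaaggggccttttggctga
NOS2, bases 437 to 496: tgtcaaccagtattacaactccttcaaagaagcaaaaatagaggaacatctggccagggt
NOS2, bases 2601 to 2660: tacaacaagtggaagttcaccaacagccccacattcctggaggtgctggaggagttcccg

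In the superficial sample 96 of the 1001 measured genes (9.59%) were higher by 4-fold or more, 366 (36.6%) were lower by 4-fold or more, and 539 lay within 4-fold, so that 46.2% were past 4-fold in either direction. The median difference, superficial minus middle, was -1.49 on the log2 scale, the central span from the 5th to the 95th percentile ran from -4.35 to 3.35, and the levels correlated across genes with r = 0.68, genes being no replicates. The split depended on the scaling: 241 genes were higher and 71 lower after scaling on the 50th percentile of all probes, and 39 were higher and 728 lower after quantile normalization. Scaling by a constant moves every gene alike. Counted from the median gene, 197 genes were at least 4-fold above it and 108 at least 4-fold below it under each percentile scaling, against 195 and 51 after quantile normalization and 160 and 35 after normexp background correction. For this reason most gene groups below are also counted by how many measured members lay above -1.49. Group counts of genes past 4-fold stand beside the shares of 9.59% higher and 36.6% lower over all measured genes. The error that the scanner software gives for spots put a median error of 0.24 on a difference (0.09 to 0.45), which leaves out variation between animals, dissections and amplifications.

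**Figure D1:**
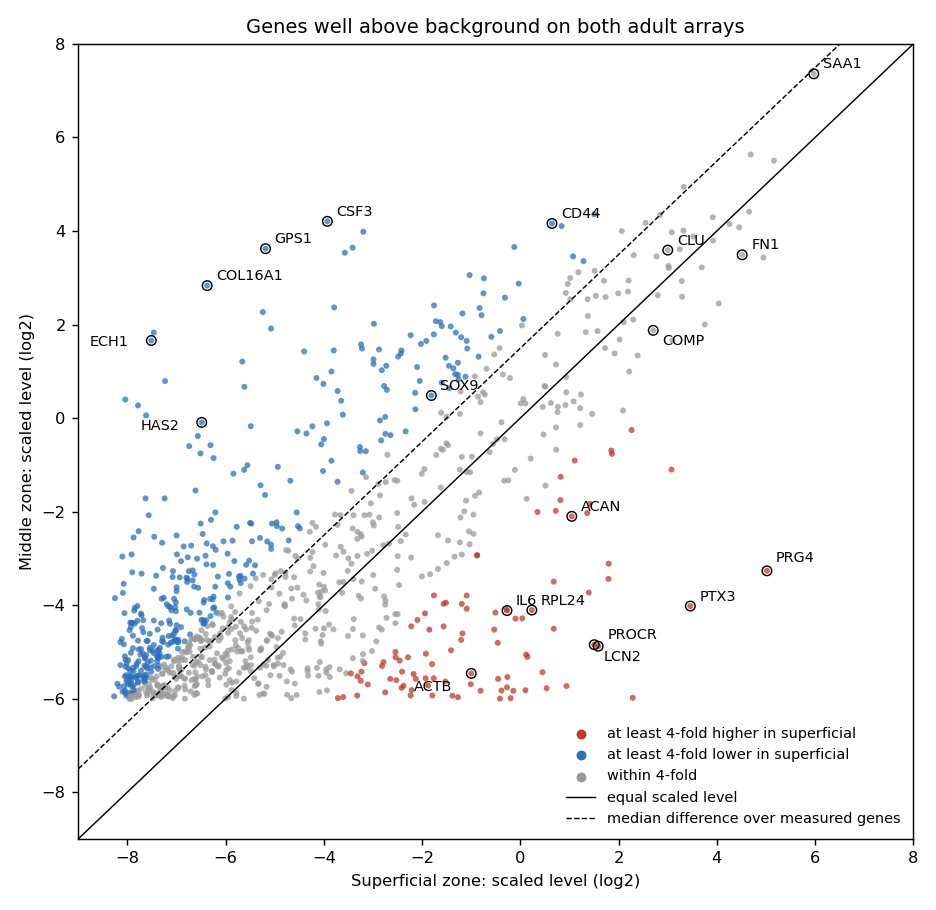
Scaled level (log2) of each of the 1001 measured genes in the superficial sample (horizontal) and the middle sample (vertical), 1 point per gene. PRG4, PTX3, LCN2 and PROCR lie far below the line of equal level, COL16A1, ECH1, GPS1 and CSF3 far above it, and the dashed line marks the median difference of -1.49.

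When the measured genes were ordered by mean level and split into 4 parts, the dimmest part of 251 genes held 0 higher and 131 lower genes, and the brightest part of 250 held 26 higher and 86 lower genes. The 67 higher genes of the third part made up most of the higher calls. The lowest signal well above background was 8.24 on the superficial array and 7.87 on the middle array. The scaling signals of 2560 and 507 differ far more, so a gene near background on both arrays comes out lower in the superficial sample. The absence of higher genes in the dimmest part was thus largely set by filter and scaling. Dim genes called lower below carry the same limit. Some genes called higher had middle signals close to the lowest of 7.87. Before scaling these were 7.91 for COPA, 7.96 for SARAF, 8.89 for COL11A1 and CD63, 8.96 for GABARAPL1 and 9.35 for RPL7A. Folds of such genes rest on a middle value near background.

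A further 2819 genes were well above background in the superficial sample only (20.9% of the genes on the array), against 292 in the middle sample only (2.16%). For these a bound was computed from the lowest signal well above background on the dim array, or from the dim probe's own signal where that was higher. Each bound is written below as at least N-fold.

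Probes of the same gene allowed a check within the arrays. Of the measured genes, 183 had several measured probes, and for 126 of these the probes overlapped one another, so that they shared most of their sequence. The range of differences over such overlapping probes had a median of 0.45. The other 57 genes were measured at separate sites, which shared under 15 bases, and there the gap between sites had a median of 1.04 and a 90th percentile of 3.86. The sites lay on the same side of 0 for 43 of these 57 genes. Every site was at least 4-fold higher in the superficial sample for 2 genes, HNRNPU and SIK3, and at least 4-fold lower for 15. Among the 366 lower genes, 235 had 1 probe on the array, and 17 of the other 131 had another probe that was higher.

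The widest gap was at RBM8A, a subunit of the exon junction complex. Its 5 probes starting at bases 419 to 424 of the target gave differences of -0.78 to -1.07, while those at 621 and 641 gave -9.83 and -9.46. HSPA9, the mitochondrial chaperone mortalin, was higher in the superficial sample at bases 1462 to 1466 (2.39 to 3.00) and lower at 2293 and 2353 (-3.85 and -4.84). GPX3, the extracellular glutathione peroxidase, was lower at 435 to 440 (-5.21 to -6.32) and higher at 1063 (2.01). NOS2, the inducible nitric oxide synthase, gave -2.80 to -3.04 at bases 433 to 437, -0.95 at 2323, 0.82 at 2601 and -3.73 to -5.45 at 3868 to 3872. The direction thus depended on the probe for HSPA9, GPX3 and NOS2, and the size of the difference for RBM8A. FN1, which encodes fibronectin, was steadier, with 9 probes all between 1.00 and 2.65.

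**Figure D2:**
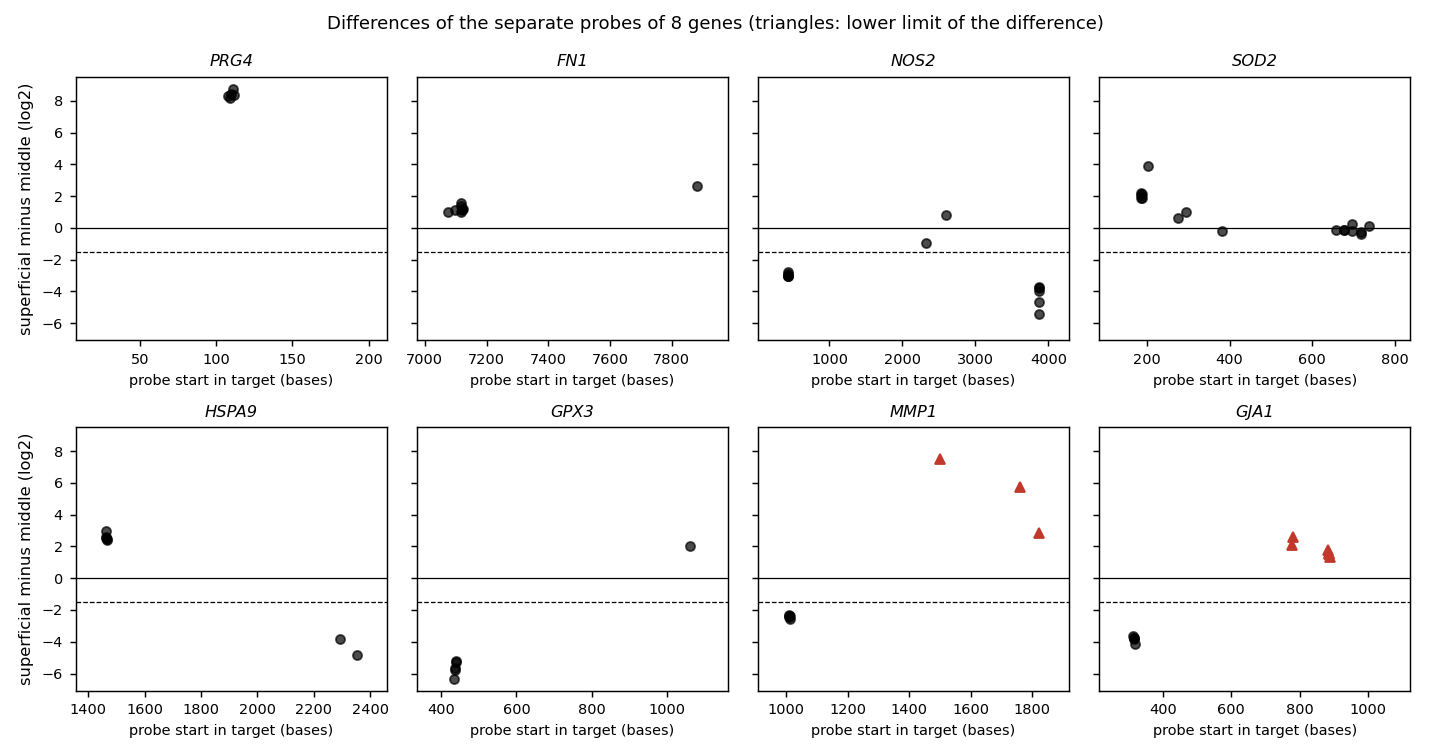
Difference, superficial minus middle (log2), at each probe of 8 genes against the probe's start in its target (bases), with triangles for the lower limit where only the superficial array was well above background. The PRG4 probes lie at 8.19 to 8.73 and start within 4 bases of one another. By contrast, HSPA9, GPX3, NOS2, SOD2, MMP1 and GJA1 change sign between sites.

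Of the 17 genes listed for the cartilage surface that were on the array, 5 were measured on both, 2 of them at least 4-fold higher and 1 lower, and 4 lay above the median of all genes. The list's median difference was 1.37, against -1.49 over all measured genes. A further 6 members were detected in the superficial sample only and 0 in the middle sample only. PRG4 had a scaled level of 5.02 in the superficial sample and -3.27 in the middle sample, beside 0.11 in the deep sample. In the fetal samples it stood at 3.86 and 3.37 in the 2 interzone layers and -5.78 in transient cartilage. The superficial sample was thus the highest of 6 for PRG4 and the middle sample the lowest of the adult zones, and the difference was 8.29, or 313-fold, with a range of 8.19 to 8.73 over its 5 overlapping probes.

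ABI3BP, a matrix protein that binds collagen, had scaled levels of 1.86 in the superficial sample and -0.77 in the middle sample, beside 2.06 in the deep sample. It was 6.19-fold higher, and its 3 probes gave 2.52 to 2.63. TNC, which encodes tenascin C, had scaled levels of 1.22 in the superficial and -0.15 in the middle sample and was not well above background in the deep sample, a difference of 1.37 that lies within 4-fold. CLU, the secreted chaperone clusterin, was bright in all adult zones, with scaled levels of 3.00 in the superficial, 3.59 in the middle and 5.05 in the deep sample, and also lay within 4-fold. CD44, the receptor for hyaluronan, was the one member at least 4-fold lower, with scaled levels of 0.64 in the superficial and 4.16 in the middle sample (11.4-fold) by its 1 probe.

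Among surface genes detected in the superficial sample only, PLA2G2A, a secreted phospholipase, was at least 201-fold higher and VCAM1, a cell adhesion molecule, at least 130-fold higher. SEMA3A, a secreted semaphorin, was at least 77.5-fold higher. The transcription factor ERG, known in joint-forming chondrocytes, was at least 12-fold higher, with a scaled level of -2.42 in the superficial sample. CILP2, DKK3, VIT, DPT, MFAP5 and SFRP2 were well above background on neither array.

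**Figure D3:**
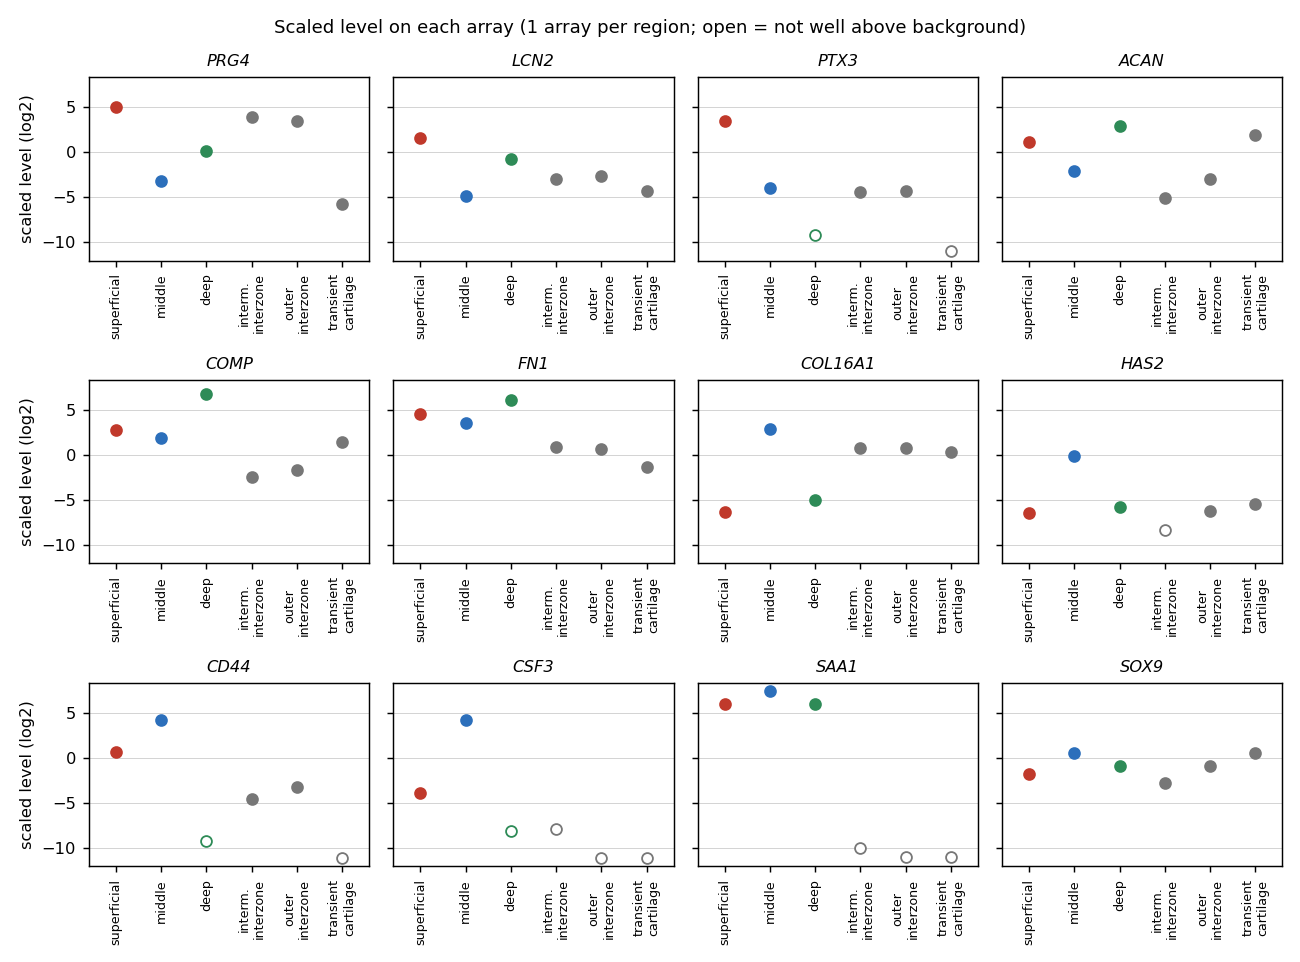
Scaled level (log2) of 12 genes on each of the 6 arrays, 1 array per region, with the superficial sample first and open circles where the probe was not well above background. PRG4, LCN2 and PTX3 peak in the superficial sample, COL16A1, HAS2, CD44 and CSF3 in the middle sample, and COMP, FN1 and ACAN in the deep sample.

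Of the 12 genes on the array listed for the middle and deep zones, 2 were measured on both arrays, and 1 of these was at least 4-fold higher in the superficial sample. Both lay above the median of all genes. Another 4 were detected there only, and 2 in the middle sample only. ACAN, which encodes aggrecan, had a scaled level of 1.05 in the superficial sample and -2.10 in the middle sample, beside 2.90 in the deep sample, and was 8.88-fold higher by its probe at base 6470. A second ACAN probe, at 5998, had levels of 1.29 in the superficial sample and 3.50 in the deep sample and was not well above background in the middle sample. COMP, the cartilage oligomeric matrix protein, had scaled levels of 2.71 in the superficial, 1.88 in the middle and 6.73 in the deep sample, with differences of 0.27 and 0.83 at its 2 probes. HAPLN1, the link protein that fixes aggrecan to hyaluronan, was at least 82.8-fold higher in the superficial sample. CYTL1, a small protein secreted by chondrocytes, was at least 9.54-fold higher, though its superficial level of -2.76 lay below its deep level of 2.84.

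The members detected in the middle sample only were CILP and CHAD. CILP, a protein named after the intermediate layer of cartilage, had a scaled level of -5.33 in the middle sample and -2.36 in the deep sample and was at least 7.72-fold lower in the superficial sample. CHAD, the collagen-binding protein chondroadherin, was at least 7.41-fold lower, with a middle level of -5.39. The middle levels of CILP and CHAD were close to background. Much of each bound comes from the scaling, where a level of 0 stood for 2560 on the superficial and 507 on the middle array. COL2A1, the main collagen of cartilage, was not well above background at any of its 6 probes on any adult array. Among the chondrocyte markers, ACAN, COMP, SOX9 and COL11A1 were well above background on both arrays. HAPLN1 was so in the superficial sample only and CHAD in the middle sample only, so the chondrocyte label rests on part of its markers. SOX9, the transcription factor of chondrocytes, had scaled levels of -1.81 in the superficial, 0.48 in the middle and -0.96 in the deep sample. This makes it 4.90-fold lower in the superficial sample by the 1 of its 3 probes that was measured. Before scaling its signals were 729 in the superficial and 708 in the middle sample, so the difference comes from the scaling. Counted from the median of all genes it was -0.80.

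Collagens were sparsely measured. COL11A1, which takes part in the fine fibrils of cartilage, had scaled levels of -0.81 in the superficial and -5.83 in the middle sample and was 32.5-fold higher at base 5358. The COL11A1 probe at 5281 was well above background in the superficial and deep samples but not in the middle sample. COL27A1 had levels of -2.51 in the superficial and -2.03 in the middle sample, within 4-fold. Of 23 other collagen genes on the array, 4 were measured on both, 0 of them at least 4-fold higher and 2 lower, and 1 of the 4 lay above the median of all genes. Another 6 were detected in the superficial sample only. COL3A1, a fibrillar collagen of skin, vessels and synovium, was at least 117-fold higher, and COL6A3, a chain of the pericellular type VI collagen, at least 96.9-fold higher.

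COL16A1 was the other extreme. This fibril-associated collagen had scaled levels of -6.38 in the superficial and 2.83 in the middle sample, beside -5.03 in the deep sample and 0.35 to 0.80 in the fetal samples. Its signal was 30.8 in the superficial, 3610 in the middle and 27.3 in the deep sample, so the middle sample stood apart from both neighbours. The difference of -9.21 (592-fold lower) rests on the 1 probe printed above. COL7A1, the anchoring fibril collagen, was 4.35-fold lower, with levels of -7.79 in the superficial and -5.66 in the middle sample, both close to background.

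Of 34 genes for proteoglycans and hyaluronan metabolism, 6 were measured on both arrays, of which 1 was higher by 4-fold or more and 3 were lower. Their median difference was -1.96, and 3 lay above that of all genes. A further 16 were detected in the superficial sample only, 10 of them with a bound of at least 4-fold. These included the syndecans, transmembrane heparan sulphate proteoglycans, with SDC4 at least 418-fold and SDC3 at least 176-fold higher. DCN, which encodes decorin, a small proteoglycan bound to collagen, was at least 86.8-fold higher. HAS2, the main hyaluronan synthase of chondrocytes, had scaled levels of -6.49 in the superficial, -0.09 in the middle and -5.74 in the deep sample and was 84.1-fold lower. SDC2 was 6.69-fold lower by its probe at 1948 but at least 38.0-fold higher by its probe at 1487. BGN, which encodes biglycan, lay close to 0 at each of its 3 probes (-0.34 to -0.06).

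The matrix glycoproteins were close to even. Of 40 on the array 10 were measured, 0 at least 4-fold higher and 2 lower, and 8 lay above the median of all genes. Their median difference was -0.09. FN1 had scaled levels of 4.52 in the superficial, 3.49 in the middle and 6.06 in the deep sample. THBS2, a thrombospondin, had levels of 2.22 in the superficial and 0.99 in the middle sample, with 1.11 to 1.36 over 4 probes. SPP1, which encodes osteopontin, was at -0.56 in both. LAMB1, a laminin chain of basement and pericellular membranes, was 14.4-fold lower, and MATN4, a matrilin, 12.8-fold lower, the superficial levels being -2.82 and -7.08. LAMA4, another laminin chain, and EFEMP2, a fibulin, were detected in the superficial sample only, with LAMA4 at least 45.3-fold higher and EFEMP2 at least 28.4-fold.

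Matrix proteases and their inhibitors had 8 measured members of 30 on the array, of which 0 were at least 4-fold higher, 1 was lower and 5 lay above the median of all genes. TIMP3, an inhibitor of metalloproteinases and aggrecanases, was among the brightest, with scaled levels of 3.69 in the superficial and 3.22 in the middle sample. MMP3, stromelysin, had levels of 1.57 in the superficial and 1.86 in the middle sample and was not well above background in the deep sample. ADAMTS5, the main aggrecanase of cartilage in mice, had differences of 1.41 and 3.60 at its 2 measured probes. Its probe at 1355 was well above background in the superficial sample only and was at least 76.2-fold higher. MMP1, the interstitial collagenase, was 5.12-fold lower at bases 1008 to 1012. At base 1012 the signals before scaling were 844 in the superficial and 856 in the middle sample, so that difference comes from the scaling. By contrast, the MMP1 probes at 1502, 1761 and 1821 were well above background in the superficial sample only. The bounds there were at least 181-fold at 1502, 52.3-fold at 1761 and 7.25-fold at 1821. CTSK, the collagen-degrading cathepsin K, was at least 106-fold higher, and HTRA1, a secreted serine protease, at least 49.1-fold higher.

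Of 19 genes of collagen processing on the array 4 were measured, 1 at least 4-fold higher and 0 lower. Each of the 4 lay above the median of all genes, with a list median of 0.85, and 8 more were detected in the superficial sample only. MIA3, which loads collagen into transport vesicles, had scaled levels of 0.68 in the superficial, -4.51 in the middle and -2.45 in the deep sample and was 36.4-fold higher. PLOD2, a lysyl hydroxylase of collagen, was at least 37.0-fold higher, and PPIB, a collagen-folding isomerase, at least 28.2-fold. PCOLCE2, an enhancer of collagen propeptide cleavage, was within 4-fold, with levels of 1.92 in the superficial and 1.38 in the middle sample.

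**Figure D4:**
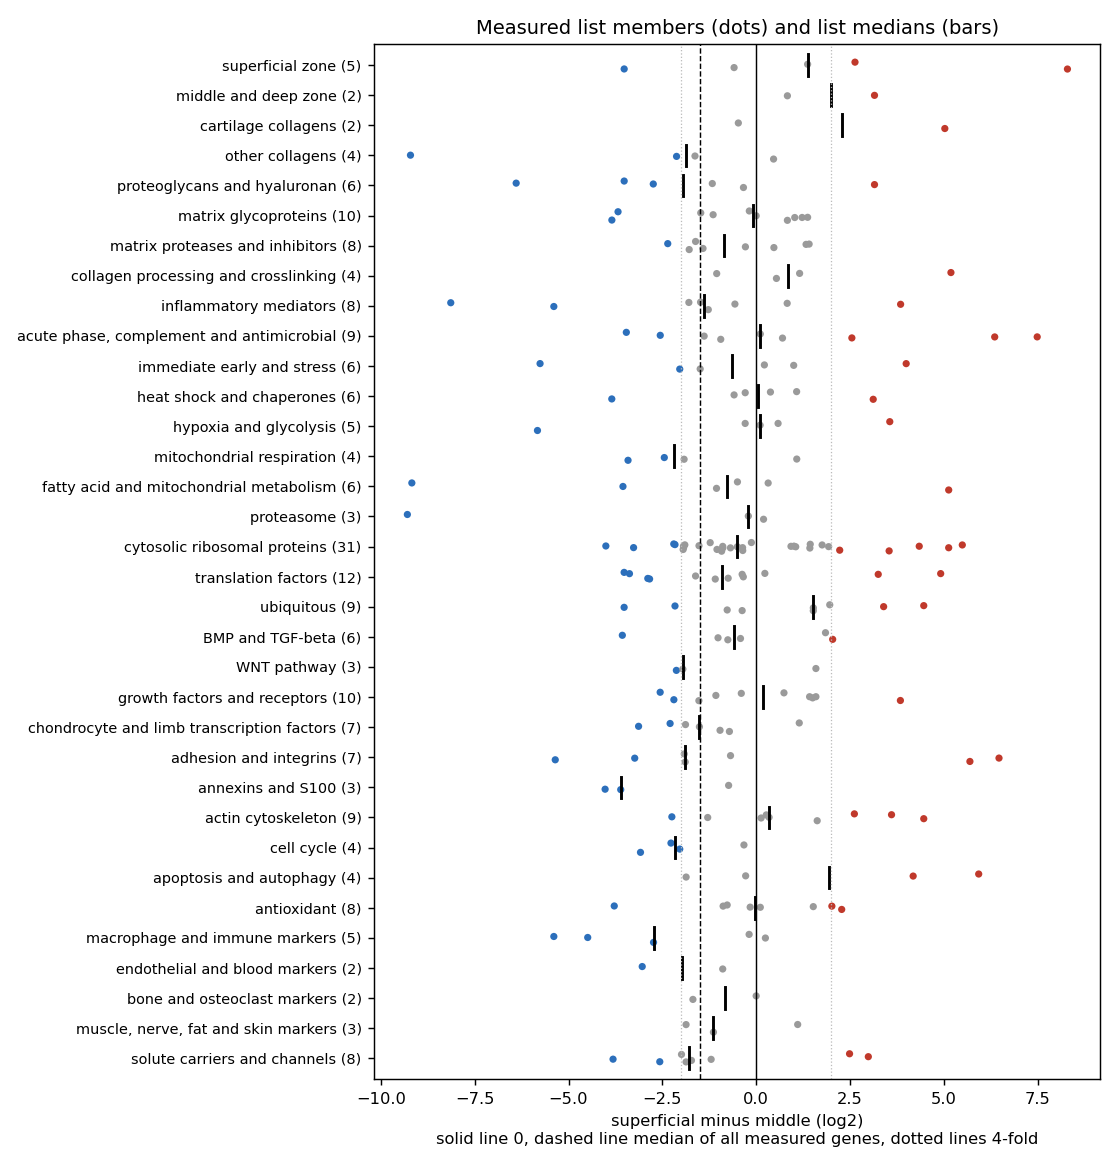
Difference, superficial minus middle (log2), of each measured member of 34 gene lists (dots) and each list's median (bars), with the number measured in brackets and dots coloured where past 4-fold. Members of most lists spread over both sides, and the dashed line marks the median of all measured genes at -1.49.

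Inflammatory mediators split within themselves. Of 43 on the array, 8 were measured, of which 1 was higher by 4-fold or more and 2 were lower. The median of -1.38 lay near that of all genes, with 5 members above -1.49, and 14 were detected in the superficial sample only. IL6, a cytokine, had scaled levels of -0.27 in the superficial and -4.12 in the middle sample and was 14.4-fold higher. CSF3, the granulocyte colony-stimulating factor, had levels of -3.93 in the superficial and 4.21 in the middle sample, 281-fold lower, and was well above background on no other array. CCL3, a chemokine, was 42.0-fold lower, while another chemokine, CCL20, was at least 208-fold higher. PTGS2, the inducible cyclooxygenase, lay within 4-fold at -0.87 and -1.48 by its 2 measured probes. RELB, a subunit of NF-kappaB, was at least 63.4-fold higher, with a level of -0.02 in the superficial sample.

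Acute phase, complement and antimicrobial genes included several of the brightest on both arrays. Of 24 on the array 9 were measured, 3 at least 4-fold higher and 2 lower, and 7 lay above the median of all genes. PTX3, a pentraxin that binds microbes and matrix, had scaled levels of 3.46 in the superficial and -4.02 in the middle sample, was not well above background in the deep sample, and was 179-fold higher by its 1 probe. LCN2, which encodes the iron-siderophore carrier lipocalin 2, had levels of 1.5 in the superficial, -4.85 in the middle and -0.73 in the deep sample, 81.7-fold higher, with fetal levels of -2.72 to -4.30. DEFB4B, an antimicrobial defensin, was at least 561-fold higher, with a superficial level of 3.12.

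The complement proteases C1R and C1S, which act together in the first complex of the classical pathway, differed in opposite directions. C1R had scaled levels of 1.85 in the superficial and -0.70 in the middle sample, with differences of 2.20 to 2.65 over 5 overlapping probes. C1S had levels of -2.78 in the superficial and 0.68 in the middle sample, with -3.43 to -3.97 over 3 probes. CFB, a protease of the alternative pathway, lay within 4-fold at 3.29 in the superficial and 2.59 in the middle sample. SAA1, an acute phase protein, had the brightest probe of either array, with scaled levels of 5.97 in the superficial and 7.36 in the middle sample. Its probes disagreed in sign, from -1.39 at base 153 to 0.74 at base 509. SOD2, the mitochondrial superoxide dismutase, had 17 measured probes, from 3.86 at base 202 to -0.40 at base 717, with 11 of them starting at 275 or later and lying between -0.40 and 1.02.

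Immediate early and stress genes had 6 measured members of 33, with 1 higher and 2 lower by 4-fold or more and 4 above the median of all genes. Another 15 were detected in the superficial sample only. KLF4, a transcription factor, had scaled levels of -0.53 in the superficial and -4.53 in the middle sample and was 15.9-fold higher. SGK1, a kinase induced by glucocorticoids and osmotic stress, had levels of -6.51 in the superficial and -0.76 in the middle sample, 54.1-fold lower. JUNB was even, at 0.46 in the superficial and 0.24 in the middle sample. GADD45A, induced by DNA damage, was at least 36-fold higher and DDIT3, induced by endoplasmic reticulum stress, at least 16.4-fold.

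Among 27 chaperones, 6 were measured, 1 at least 4-fold higher and 1 lower, and 5 above the median of all genes. Another 15 were detected in the superficial sample only. HSPA5, the main chaperone of the endoplasmic reticulum, was bright and even, with scaled levels of 4.46 in the superficial and 4.08 in the middle sample. HSPH1, a co-chaperone, was 8.67-fold higher, with a middle level of -5.87 close to background, and quantile normalization turned its difference to -0.13. The cytosolic HSP90AB1 was at least 322-fold higher and the endoplasmic HSP90B1 at least 143-fold higher, each not well above background in the middle sample.

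Genes of hypoxia and glycolysis had 5 measured members of 30, 1 past 4-fold in each direction and 4 above the median of all genes. Their own median was 0.10, and 15 more were detected in the superficial sample only. HIF1A, the oxygen-regulated transcription factor, had scaled levels of -0.62 in the superficial and -0.73 in the middle sample, and the glycolytic enzyme ALDOA had -0.39 in the superficial and -0.09 in the middle sample. PDK1, a kinase that limits pyruvate entry into mitochondria, had levels of -4.40 in the superficial and 1.42 in the middle sample, 56.8-fold lower. BNIP3L, a mitophagy receptor, was 11.8-fold higher. Of the enzymes, GAPDH was at least 98.1-fold and LDHB at least 99.4-fold higher. None of the 13 GAPDH probes was well above background in the middle sample.

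Mitochondrial respiration genes had 4 measured members of 31, with 0 higher and 2 lower by 4-fold or more and 1 above the median of all genes, beside 11 detected in the superficial sample only. UQCRC1 of complex III was lower by a difference of -3.41 and NDUFV1 of complex I was 5.46-fold lower, while ATP5F1B, a subunit of ATP synthase, was at least 53.6-fold higher. The NDUFV1 signals were dim, at 32.1 in the superficial and 34.7 in the middle sample before scaling. Of 36 genes of fatty acid and mitochondrial metabolism 6 were measured, 1 at least 4-fold higher, 2 lower and 3 within 4-fold, and 4 lay above the median of all genes. HADHA, the alpha subunit of the trifunctional protein, had scaled levels of -0.45 in the superficial and -5.58 in the middle sample, 34.9-fold higher. ECH1, an isomerase of the same pathway, had -7.51 in the superficial and 1.66 in the middle sample, 577-fold lower. ACADM, the medium-chain dehydrogenase, was at least 717-fold lower, with a middle level of 1.21.

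Of 35 proteasome genes on the array, 18 were detected in the superficial sample only and 3 on both. Of these 3, 0 were at least 4-fold higher, 1 was lower and 2 lay within 4-fold, and 2 were above the median of all genes. PSMD3, a subunit of the regulatory particle, had levels of -7.46 in the superficial, 1.83 in the middle and -6.96 in the deep sample, 627-fold lower by 1 probe, while PSMD7 and PSMD11 of the same particle differed by 0.19 and -0.21. PSMB3, a core subunit, was at least 91.9-fold lower, and PSMA4, another core subunit, at least 23.4-fold higher.

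Cytosolic ribosomal proteins were the best measured group, with 31 of 44 on both arrays. Of the members detected in the superficial sample, 74.4% were also detected in the middle sample, against 26.6% of all genes. Of the 31, 5 were higher and 4 lower by 4-fold or more. Their median difference was -0.50, and 22 lay above the median of all genes. RPL7A was 44.9-fold higher, RPS7 34.9-fold and RPL24 20.3-fold, with middle levels of -5.76, -3.73 and -4.11. The 5 overlapping RPL24 probes gave 3.96 to 5.04. FAU, a fusion of a ubiquitin-like protein and a ribosomal protein, was lower at both of its probes (-4.01 and -6.67). RPS4X gave 1.44 at base 665 and 5.22 at base 595.

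**Figure D5:**
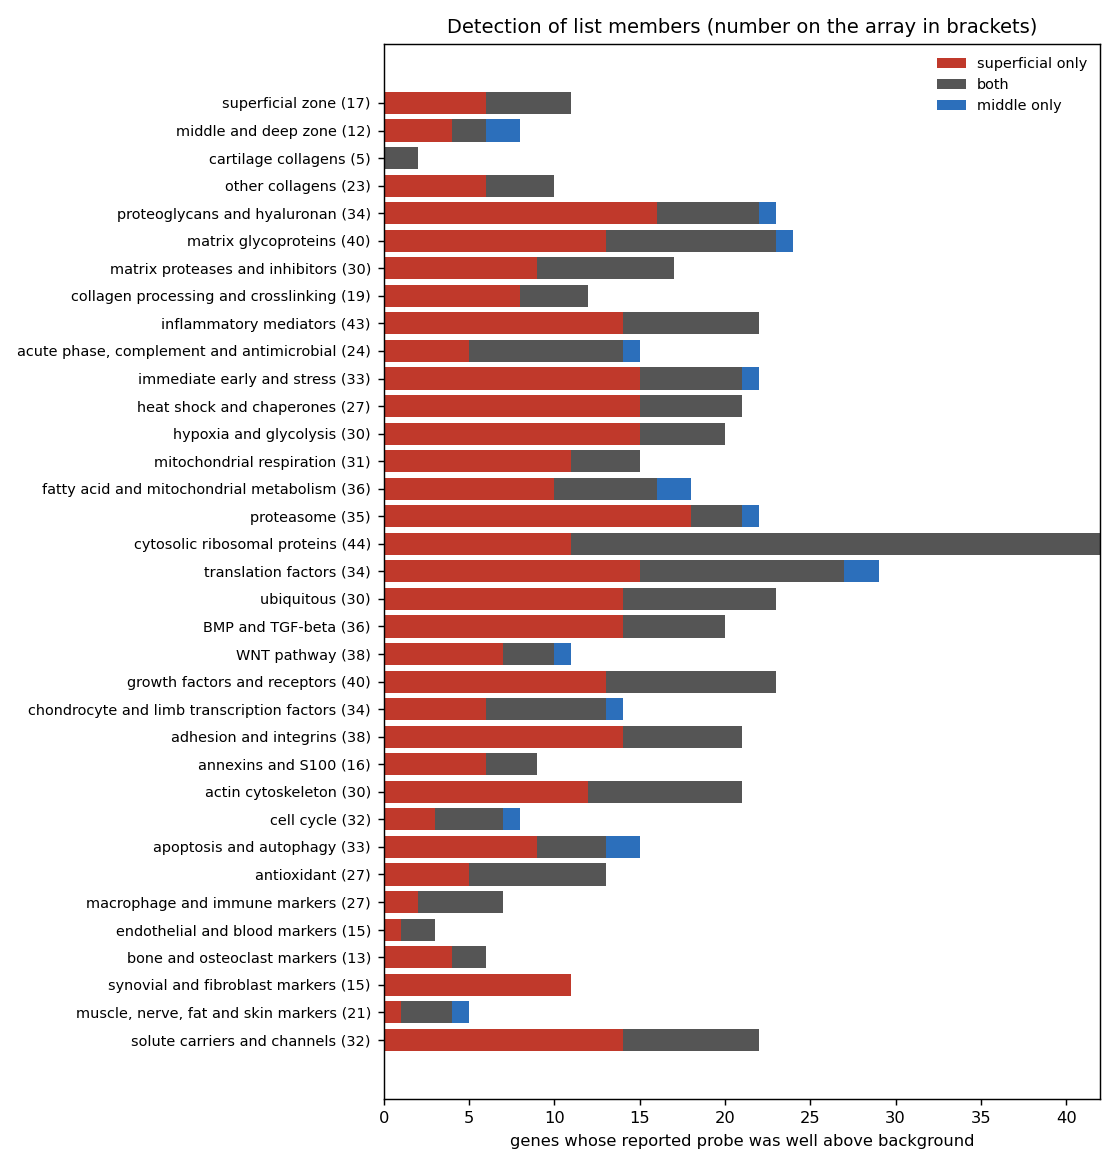
Number of genes in each of 35 lists whose reported probe was well above background in the superficial sample only, on both arrays or in the middle sample only, with the number on the array in brackets. The ribosomal proteins have 31 members on both arrays, the synovial and fibroblast markers 11 in the superficial sample only and 0 on both.

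Translation factors had 12 measured members of 34, with 2 higher and 4 lower by 4-fold or more and 7 above the median of all genes. EIF4B and EIF4A2, which take part in the unwinding of messenger RNA before translation starts, were 30.1-fold and 9.51-fold higher. EEF2, the translocation factor, was 11.5-fold lower at base 519, but its probe at 2699 was detected in the superficial sample only and was at least 1.66-fold higher. EEF1A1, which brings transfer RNA to the ribosome, had scaled levels of 3.92 in the superficial and 4.29 in the middle sample. Of the ubiquitously expressed genes often used for reference, 9 of 30 were measured, 2 past 4-fold in each direction and 7 above the median of all genes. Their own median was 1.52, and 14 were detected in the superficial sample only. ACTB, which encodes beta-actin, was 22.0-fold higher, with levels of -1.0 in the superficial, -5.46 in the middle and -1.90 in the deep sample. FTH1, the ferritin heavy chain, was bright in both, at 4.95 in the superficial and 3.43 in the middle sample.

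In BMP and TGF-beta signalling, 6 of 36 genes were measured, 1 past 4-fold in each direction and 5 above the median of all genes, and 14 were detected in the superficial sample only. TGFB2, a ligand, had scaled levels of -1.60 in the superficial and 1.97 in the middle sample, 11.8-fold lower, with -3.57 and -4.65 at its probes. SMAD7, an inhibitor of the pathway, was 4.10-fold higher, but its difference was -0.69 after quantile normalization. The receptor TGFBR1 lay within 4-fold at 1.85, and the ligand BMP6 was at least 42.3-fold higher. INHBA, a subunit of activin, was even at 0.72 in the superficial and 1.14 in the middle sample. Of 3 measured WNT pathway genes 0 were at least 4-fold higher and 1 was lower, and 1 lay above the median of all genes. Among them CCN2, a matricellular growth factor, was 3.01-fold higher with 1.59 to 1.65 over 5 probes, and its relative CCN1 at least 132-fold higher. AXIN1, a scaffold of the complex that degrades beta-catenin, was 4.37-fold lower. Its signals of 12.6 in the superficial and 10.9 in the middle sample were both close to background before scaling. FRZB, a secreted WNT antagonist of cartilage, was at least 9.66-fold higher.

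Growth factor genes had 10 measured members of 40, 1 at least 4-fold higher, 2 lower and 7 above the median of all genes. SPRY2, a feedback inhibitor of receptor tyrosine kinases, was 14.3-fold higher, with 3.31 to 3.84 over 3 probes, while its relative SPRY1 was 5.89-fold lower. SPRY1 was close to background on both arrays, with signals of 11.4 in the superficial and 13.3 in the middle sample before scaling. Of the receptors for fibroblast growth factors, FGFR1 was at least 116-fold and FGFR3 at least 60.4-fold higher, and the ligand FGF1 was 4.57-fold lower. The FGF1 signals were dim, at 20.2 in the superficial and 18.3 in the middle sample before scaling. PTHLH, the parathyroid hormone-like hormone of cartilage, lay within 4-fold at -1.50 in the superficial and 0.03 in the middle sample. Of 7 measured transcription factors 0 were at least 4-fold higher and 2 lower, and 3 lay above the median of all genes. FOXC2 and FOXO3 were detected in the superficial sample only, FOXC2 at least 39.3-fold and FOXO3 at least 19.6-fold higher. MKX, a factor of tendon development in mice, had scaled levels of -1.47 in the superficial and -2.62 in the middle sample.

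Adhesion genes had 2 members at least 4-fold higher and 2 lower of 7 measured, and 3 lay above the median of all genes. PROCR, the endothelial protein C receptor, had scaled levels of 1.58 in the superficial, -4.88 in the middle and 0.71 in the deep sample, with 6.47 and 7.06 at its 2 probes. CD63, a tetraspanin of late endosomes, was 51.7-fold higher. ZYX, a focal adhesion protein, was 40.9-fold lower. Among annexins, ANXA2 was at least 129-fold and ANXA1 at least 71.2-fold higher, whereas ANXA5 had levels of -2.03 in the superficial and 1.58 in the middle sample, 12.2-fold lower. ANXA7 was even, at 2.20 in the superficial and 2.94 in the middle sample. VIM, the intermediate filament vimentin, had levels of 3.93 in the superficial and 3.80 in the middle sample.

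Of 9 measured genes of the actin cytoskeleton 3 were at least 4-fold higher and 1 lower, and 8 lay above the median of all genes. MYH10, a nonmuscle myosin, was 12.2-fold and CALD1, caldesmon, 6.12-fold higher. Their middle signals were close to background before scaling, at 8.99 for MYH10 and 8.28 for CALD1. Quantile normalization turned the difference of CALD1 to -0.56. Of 4 measured cell cycle genes 3 were at least 4-fold lower, beside 36.6% of all measured genes, and 1 lay above the median of all genes. Among these MCM3, of the replication helicase, was 8.47-fold lower, and MCM6 of the same helicase was detected in the middle sample only (at least 68.0-fold lower). MCM3 was measured at 1 of its 3 probes, with dim signals of 18.3 in the superficial and 30.7 in the middle sample. CCND2, another of the lower genes, was close to background, with signals of 11.3 in the superficial and 10.8 in the middle sample. GABARAPL1, an autophagosome protein, was 60.8-fold higher with 5.42 to 5.93 over 4 measured probes. TNFRSF11B, which encodes the decoy receptor osteoprotegerin, was 18.1-fold higher. SOD1, the cytosolic superoxide dismutase, had scaled levels of -0.12 in the superficial, 3.66 in the middle and 2.05 in the deep sample, 13.8-fold lower. The connexin gene GJA1 was 14.1-fold lower at bases 314 to 318 and detected in the superficial sample only at bases 778 to 887. SLC3A2, the heavy chain of amino acid transporters, was at least 234-fold higher.

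Markers of other cell types were examined because each sample was cut from tissue. Of 15 synovial and fibroblast markers on the array, 11 were detected in the superficial sample only, 6 with a bound of at least 4-fold, and 0 in the middle sample. Over all genes on the array 20.9% were detected in the superficial sample only. Of all genes detected in the superficial sample, 26.6% were also detected in the middle sample. The summed signal of these markers was 10170 in the superficial and 35.5 in the middle sample, before scaling. The 11 markers were COL1A1, COL1A2, COL3A1, CDH11, PDGFRA, PDGFRB, LUM, DCN, POSTN, CD34 and TNXB, while DPT, FAP, CLIC5 and ASPN were on neither array above background. Chondrocytes also express some of these genes, and the part of synovial or fibroblast cells in the genes detected in the superficial sample only was not tested.

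Of 27 macrophage and immune markers 5 were measured, 0 at least 4-fold higher, 3 lower and 2 above the median of all genes. Over all measured genes 36.6% were lower. Another 2 were detected in the superficial sample only, and 20, including CD14, CD74, ITGAM, TYROBP and MRC1, on neither. Over the whole array 31369 of 43603 probes were well above background on neither, so undetected markers do not show that a cell type was absent. CSF1R, the receptor for macrophage colony-stimulating factor, had scaled levels of -7.00 in the superficial and -2.51 in the middle sample, 22.4-fold lower, and CD68, a lysosomal protein of macrophages, was 6.66-fold lower. The CD68 signals were dim, at 18.2 in the superficial and 24 in the middle sample before scaling. The CSF1R signal was likewise dim in the superficial sample, at 20, against 88.9 in the middle sample. PTPRC, which marks leukocytes, was bright at the 6 probes starting at bases 4008 to 4023 (2.83 to 4.66 in the superficial and 2.83 to 4.41 in the middle sample), and 5 of them were well above background on all 6 arrays. At bases 302 to 304 it was near background (-6.78 to -6.90 in the superficial and -4.93 to -5.04 in the middle sample). The summed signal of this list, 68356 in the superficial and 12057 in the middle sample, was mostly that of the bright PTPRC and MS4A1 probes. Their part in the cytokine and chemokine values was not tested.

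Of 15 endothelial and blood markers 2 were measured and 12, including PECAM1, CDH5 and KDR, were well above background on neither array. VWF, the von Willebrand factor, had levels of -6.64 in the superficial and -3.61 in the middle sample, 8.21-fold lower, and LYVE1, a hyaluronan receptor of lymphatic vessels, was at least 96.9-fold higher. The VWF signals were dim, at 25.6 in the superficial and 41.6 in the middle sample before scaling. Of 13 bone and osteoclast markers 2 were measured, 0 past 4-fold, and ALPL, PHEX, SOST and ACP5 were above background on neither. Of 21 muscle, nerve, fat and skin markers 3 were measured, 0 past 4-fold, and 15 were on neither array above background. Most probes of the array were likewise on neither, so these counts do not show that the cell types were absent.

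Over all genes, those with the largest differences included members of no list. STX17, a syntaxin of autophagosomes, had scaled levels of 0.94 in the superficial and -5.73 in the middle sample, 102-fold higher. SARAF, a regulator of calcium entry, was 55.5-fold, COPA, a coat protein of transport vesicles, 48.1-fold, and CAV1, caveolin, 38.7-fold higher. Their middle signals were close to background before scaling, at 7.96 for SARAF, 7.91 for COPA and 10.9 for CAV1, as was that of STX17 at 9.53. The other COPA and CAV1 probes were not well above background in the middle sample. EMP1, a membrane protein, had levels of 1.79 in the superficial and -3.44 in the middle sample and was higher at both measured probes (5.23 and 6.50). HMGB1, a chromatin protein, was at least 461-fold higher, GLUL, glutamine synthetase, at least 289-fold and PRNP, the prion protein, at least 252-fold.

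In the other direction, GPS1, a subunit of the COP9 signalosome, had scaled levels of -5.19 in the superficial and 3.62 in the middle sample, 449-fold lower. PIK3C3, a lipid kinase of autophagy, was 266-fold and SPAST, a microtubule-severing enzyme, 260-fold lower, each by 1 probe. AVEN, an inhibitor of apoptosis, was lower at its 3 measured probes (-7.06 to -9.53), PPP2R5D, a subunit of protein phosphatase 2A, at 2 (-7.01 and -7.11), and VPS13A, a lipid transport protein, at 2 (-6.99 and -7.12). KATNIP was lower at 5 overlapping probes (-6.01 to -6.43). FAF2, a protein of endoplasmic reticulum degradation, was at least 2745-fold lower, IRAK3, an inhibitor of toll-like receptor signalling, at least 1054-fold and PRKAR1A, a regulatory subunit of protein kinase A, at least 772-fold. For AVEN, KATNIP, GPS1, PIK3C3 and SPAST the middle sample was the highest of all 6 arrays. The same held for 531 of the 1001 measured genes (53.0%) and for 311 of the 366 lower genes (85.0%). Over the measured genes this share was 22.6% after scaling on the 50th percentile of all probes.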

How the data were processed

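Gene expression was measured on 1-colour Agilent horse arrays, 1 per region. Per the file headers, the deposited scanner files hold an intensity per spot after background subtraction by Agilent's Feature Extraction software, version 10.7.3.1, with flags for spots well above background. Hybridisation ran for 17 h at 65 °C per the labels. A deposited series table held the authors' ratio values, which matched the processed signal over its median on that array (column medians 1 to 1.01, log2 correlation at least 0.999959) and were used as an alternative. The superficial and middle arrays lay on the same slide. No genome build was given in the sources used here and no coordinates are printed.

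Control spots (1417 per array) and outlier spots (14 on the superficial and 7 on the middle array) were left out. Probes were named through the gene number, symbol, name or accession in the files and a table of horse RefSeq genes: a gene number named 13535, a current symbol 8714, a symbol that the table lacks 416, a gene name 406, an accession 225 and an older symbol 184, while 20123 stayed unnamed. The reported probe of a gene was the one with the highest mean scaled level over the 6 arrays. Differences are log2 values computed from the deposited intensities, superficial minus middle, with a call at 4-fold and the scaling given in the report. A bound for a whole gene was given only where none of its probes was well above background on the dim array, and bounds for single probes are given with the probe's base.

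Named genes were the 15 largest differences per direction whose probes agreed in sign, the 10 largest bounds, the 10 per direction most alike over at least 2 probes, up to 5 measured members and 4 bounds per direction of each of 35 gene lists with the member nearest the all-gene median, and a set of markers. RBM8A, NOS2, HNRNPU, SIK3, MMP3, JUNB, CFB, RPS4X, INHBA, PTHLH and other genes named for probes that disagreed or for even levels were chosen after their values were seen, as were genes in counts of detection. Some genes that the rule names are not reported here. Members and lists were chosen with earlier results of these data known. The lists held 1235 genes, 921 of them on the array. The computation was tested on simulated data. Alternatives were other scalings, quantile normalization and normexp correction with an offset of 50 (limma 3.58.1, R 4.3.3), the authors' values, other summaries over probes, filters and thresholds. Python 3.11.15 was used otherwise.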

Additional observations from a re-analysis of the deposited data

How the results depend on the processing

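No paired analysis was possible because each zone had 1 array, and for the same reason no array could be left out. Against 96 higher genes, 366 lower genes and a median difference of -1.49, scaling on the 50th percentile of all probes gave 241 and 71 with a median of 0.45. Scaling on that percentile of the probes well above background on each array gave a median of -1.82, and scaling on the median of probes measured on both arrays gave -1.19. Quantile normalization gave 39 and 728 with a median of -3.10, and normexp correction gave 44 higher genes and a median of -1.83. A stricter filter on dim probes gave 24 and 146 with a median of -1.23, and a wider one 614 and 1236. A 2-fold threshold gave 161 and 599, and a 16-fold threshold 35 and 69. Genes with at least 2 measured probes on the same side numbered 16 and 62. Genes with separate sites on the same side, an alternative chosen after seeing the data, numbered 3 and 17.

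Of 95 named genes at least 4-fold apart, 49 stayed past 4-fold in the same direction under each alternative that gave them a value. The stricter filter gave a value for 39 of the 95, and 22 of these 39 stayed past 4-fold throughout. Quantile normalization reversed HSPH1 (-0.13), SMAD7 (-0.69), CALD1 (-0.56), PRDX3 (-0.80), SLC16A1 (-0.75) and 1 list median, cartilage collagens (-0.044), which a stricter filter also reversed (-0.48). Normexp correction reversed PRDX3 (-0.19). The mean over measured probes reversed HSPA9 (0.61) and GPX3 (-4.37). The median over all probes reversed SDC2 (2.41), HSPA9 (2.45), GPX3 (-5.46) and GJA1 (0.82). By construction the last 2 alternatives bring in other probes of the gene. The cause of the other reversals was not tested. The low detection of the middle array limits the comparison to 1001 genes, and a gene detected in the superficial sample only has a lower limit and no measured fold.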

Other observations

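Probes with no gene name were measured too. Of 1433 unnamed probes well above background on both arrays, 168 were at least 4-fold higher in the superficial sample and 376 lower, with a median difference of -0.92, against -1.35 for named probes.

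The difference varied with the base composition of the probe. Ordered by GC content and split into 4 parts, the measured probes had median differences of -0.52, -0.78, -1.12 and -1.68 from the lowest to the highest GC content. Across the 2950 probes, which share both arrays, Spearman's rho was -0.15. The median GC content was 41.7% for probes well above background in the superficial sample only and 45.0% for those in the middle sample only, against 43.3% for probes on both and on neither. Whether base composition has a part in the differences of single genes was not tested.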
